A study of Mus musculus with 16 samples.

Results

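Small nucleolar RNA (snoRNA) host genes were examined in bulk RNA-seq of CD11b+ myeloid cells from tumours. The set held 10 genes of the 24421 in the count table, namely Snhg1, Snhg3, Snhg4, Snhg5, Snhg6, Snhg8, Snhg12, Snhg15, Gas5 and Zfas1. They were chosen by gene symbol, with fold changes and levels in these libraries known beforehand, and which of these values entered the choice is not recorded. Their levels and fold changes are therefore given as a description, with no test. 8 rows carried the current symbol and 2 an older one (Gm11974 for Snhg15 and 1500012F01Rik for Zfas1). 7 of the 10 passed the filter on low counts and were fitted, whereas Snhg3, Snhg4 and Snhg15 did not pass, with 100, 71 and 121 reads in all 16 libraries together.

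The libraries came from MC38-Ova tumours, a colon carcinoma line carrying ovalbumin, grown in C57BL/6 mice transgenic for Kaede, a protein that violet light turns from green to red. The mice were 8 to 14 weeks old, tumours were illuminated on day 13 after injection, and the labels give every sample the same control treatment and the same processing batch. Cells that entered afterwards were Kaede-green and cells already present were Kaede-red. There were 4 groups of 4 libraries, which paired either colour with harvest 24h or 72h after photoconversion. The sort took CD11b+ leukocytes that were CD45+ and Kaede+ but negative for TER119 and NK1.1, a gate that can hold monocytes, macrophages, neutrophils and some dendritic cells together. All animals therefore carried the Kaede transgene and a tumour, and no group was unlabelled or tumour-free. In a figure legend of the study the points of this bulk RNA-seq are tumours of separate mice. The labels do not say whether green and red libraries of the same number share a tumour.

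snoRNA host genes are transcribed and spliced like messenger RNAs, and the introns that are cut out are trimmed into snoRNAs. Box C/D snoRNAs guide 2'-O-methylation and box H/ACA snoRNAs guide pseudouridylation of ribosomal RNA and other small RNAs. Many of these hosts, as the messenger RNAs of ribosomal proteins do, start with a cytosine and a run of pyrimidines (a terminal oligopyrimidine, or TOP, start), which couples their translation to growth signals, and the spliced transcript of hosts such as Gas5 is removed by nonsense-mediated decay when it is translated. In macrophages, as in other cells, the amount of such a host RNA thus reflects both transcription and decay.

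The snoRNAs below lie inside the hosts on which the results turn and had count rows of their own. They are in DNA letters, from GENCODE M21 transcripts (mm10), with the C box (TGATGA, searched in the first 25 bases) and the D box (CTGA, last 20 bases) of C/D snoRNAs, or the ACA near the 3' end of H/ACA snoRNAs (last 8 bases), in capitals.
Snord47, in Gas5, chr1:161038082-161038158, plus strand: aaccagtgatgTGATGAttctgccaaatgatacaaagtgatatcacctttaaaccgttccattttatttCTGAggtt
Snora24, in Snhg8, chr3:123507937-123508066, minus strand: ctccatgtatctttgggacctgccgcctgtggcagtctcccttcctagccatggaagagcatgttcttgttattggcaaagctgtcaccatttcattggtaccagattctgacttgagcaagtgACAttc
Snord12, in Zfas1, chr2:167065276-167065365, plus strand: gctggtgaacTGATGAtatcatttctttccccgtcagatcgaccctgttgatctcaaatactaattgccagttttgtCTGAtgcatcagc
Snord87, in Snhg6, chr1:9942463-9942549, minus strand: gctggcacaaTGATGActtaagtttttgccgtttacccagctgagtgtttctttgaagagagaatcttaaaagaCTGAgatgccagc
Snord99, in Snhg12, chr4:132310691-132310764, plus strand: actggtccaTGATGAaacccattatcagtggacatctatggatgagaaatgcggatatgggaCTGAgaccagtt
The same search found TGATGA in 71.4% of 98 Snord transcripts, CTGA in 98.0% of them and ACA in 95.2% of 42 Snora transcripts, so these letters are general features of the classes.

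Total counts per library were between 3216858 and 15423085. Rn45s, the gene of 45S ribosomal RNA, took 79.0 to 93.4% of the reads of Kaede-green libraries and 55.8 to 84.9% of those of Kaede-red libraries. This row does not separate precursor from mature ribosomal RNA. Outside Rn45s, 468092 to 912689 reads remained per Kaede-green library and 758192 to 5472477 per Kaede-red library, so that the low members rest on few reads in Kaede-green cells. Levels below are CPM, reads per 1000000 of the effective library size, which is the total count times the TMM factor (between 0.318 and 3.84). Over both times, the median of all 9642 tested genes was 0.06 (log2 fold change, Kaede-red minus Kaede-green).

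Gas5 (chr1:161034422-161038539, plus strand, mm10) was by far the most abundant member. It gave 11534 reads in all, and 38.4 CPM per kb of annotated exon on average. Snhg8 (chr3:123507552-123508404, minus strand) followed with 13.3 CPM per kb, and no other member exceeded 2 CPM per kb. Zfas1 (chr2:167062934-167065862, plus strand) stood at 1.79, Snhg6 (chr1:9941959-9944118, minus strand) at 1.53 and Snhg1 (chr19:8723475-8726443, plus strand) at 0.967 CPM per kb. Snhg3 (chr4:132348014-132353686, minus strand) at 0.643, Snhg12 (chr4:132308623-132311024, plus strand) at 0.513, Snhg5 (chr9:88521050-88522929, minus strand) at 0.469 and Snhg15 (chr11:6525591-6528760, minus strand) at 0.464 CPM per kb did not differ beyond their spread over libraries, and neither did Zfas1 and Snhg6. Snhg4 (chr18:35553371-35558316, plus strand) was lowest at 0.138 CPM per kb. The exon length joined all annotated transcripts of a gene. It covered the whole locus of Snhg1, Snhg8, Snhg12 and Zfas1, but not of Snhg3 or Snhg15, so the order per kb depends on it. In CPM without length, the means of Snhg4, Snhg3 and Snhg15 were close (0.645, 0.634 and 0.631).

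Gas5, a growth arrest-associated transcript whose spliced RNA can also bind the glucocorticoid receptor, was lower in Kaede-red than in Kaede-green cells at both times on this scale, though not per Rn45s read at 24h (values below). In Kaede-green cells at 24h, replicates 1 to 4 had 191, 202, 211 and 225 CPM (207 ± 14.2, mean ± SD, n = 4). Kaede-red libraries at 24h had 51.1, 48.2, 69.7 and 85.8 CPM (63.7 ± 17.6, n = 4). All 4 Kaede-red libraries lay below all 4 Kaede-green ones, and the log2 fold change was -1.70 (SE 0.33). At 72h, Kaede-green libraries had 470, 258, 172 and 189 CPM (272 ± 137, n = 4). Kaede-red libraries at 72h had 27.5, 32.5, 68.5 and 12.7 CPM (35.3 ± 23.7, n = 4). The groups again did not overlap, and the log2 fold change was -2.97 (SE 0.34). Over both times it was -2.33 (SE 0.24). The spread was wide at 72h, where Kaede-green replicate 1 and Kaede-red replicate 4 were the highest and the lowest of all 16 libraries. Counts of Gas5 were between 343 and 1331 in every library, so low depth did not limit these values. In bulk samples, fewer cells of a type and less RNA per cell cannot be told apart.

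**Figure D1:**
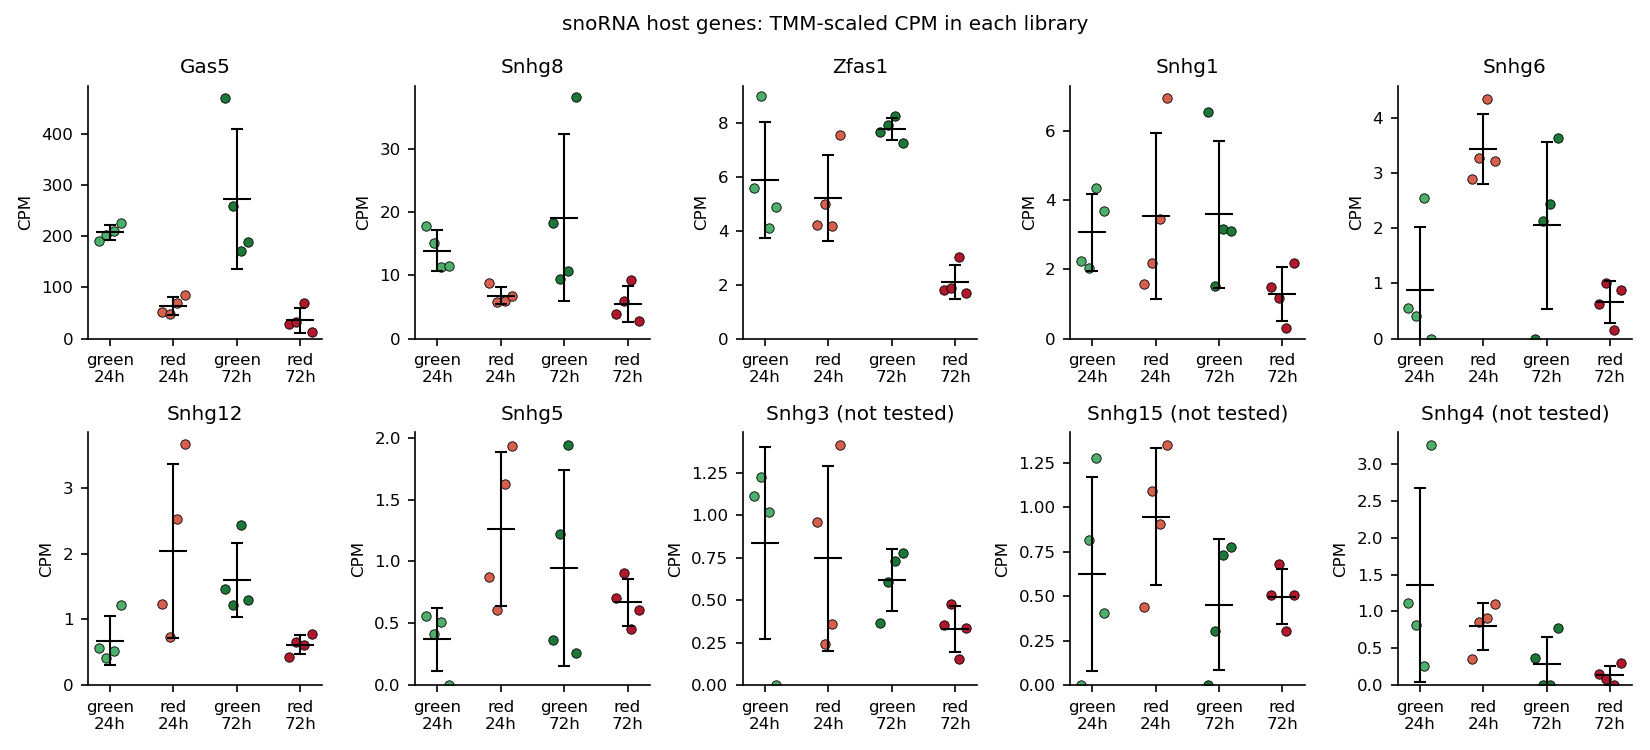
Level of each snoRNA host gene (CPM, 1 panel per gene, vertical axis from 0) in the 4 groups, with points for the 4 libraries and bars for mean and SD, cut at 0. Gas5 and Snhg8 sit lower in Kaede-red than in Kaede-green libraries at both times, Zfas1 at 72h only, and Snhg6 is highest in Kaede-red cells at 24h.

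Gas5 carried most of the reads of the set. In Kaede-green cells, its share of all member reads was between 86.6 and 90.0% at 24h and between 77.1 and 93.1% at 72h. In Kaede-red cells it was between 70.6 and 74.2% at 24h and between 55.7 and 82.8% at 72h. The share was thus lower in every Kaede-red than in every Kaede-green library at 24h, while Kaede-red replicate 3 lay above the lowest Kaede-green library at 72h. This quantity is formed within a library and does not depend on the scaling between libraries.

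Snhg8, a short host with a single H/ACA snoRNA (Snora24, printed above), was lower in Kaede-red cells at both times on this scale, though not in the median per Rn45s read (values below). Kaede-green libraries at 24h had 17.8, 15.1, 11.2 and 11.4 CPM (13.9 ± 3.17, n = 4). Kaede-red libraries at 24h had 8.76, 5.71, 5.97 and 6.64 CPM (6.77 ± 1.38, n = 4), each below the lowest Kaede-green one. The log2 fold change at 24h was -1.002 (SE 0.36). At 72h the Kaede-green values were 18.2, 9.44, 10.7 and 38.1 CPM (19.1 ± 13.2, n = 4). The Kaede-red values were 3.83, 5.94, 9.21 and 2.79 CPM (5.44 ± 2.83, n = 4). The groups did not overlap, although 9.21 and 9.44 CPM were close, and the log2 fold change was -1.90 (SE 0.34). Kaede-green replicate 4 was the highest at 72h (38.1 CPM), and without it the log2 fold change was -1.28. Over both times the log2 fold change of Snhg8 was -1.45 (SE 0.25).

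Zfas1, which runs antisense to the start of Znfx1 and hosts Snord12, was separate between the colours at 72h and overlapped at 24h. At 24h, Kaede-green libraries had 5.57, 8.99, 4.08 and 4.90 CPM and Kaede-red libraries 4.20, 4.98, 4.16 and 7.54 CPM. The groups overlapped, with means of 5.89 ± 2.16 and 5.22 ± 1.59 (n = 4 each) and a log2 fold change of -0.13 (SE 0.32), which was 0.77 with the counts outside Rn45s as library totals. At 72h, Kaede-green libraries had 7.65, 7.92, 8.26 and 7.26 CPM (7.77 ± 0.425, n = 4). Kaede-red libraries at 72h had 1.80, 1.86, 3.02 and 1.70 CPM (2.09 ± 0.620, n = 4). Here the spread was small and the groups did not overlap, and the log2 fold change was -1.97 (SE 0.31). Within Kaede-red cells, every library at 72h lay below every library at 24h, and the log2 fold change was -1.42 (SE 0.29). The red-green difference thus changed by -1.84 on the log2 scale (SE 0.44) from 24h to 72h.

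Snhg1, a host of several C/D snoRNAs, was level at 24h and lower in Kaede-red cells at 72h, with overlap. At 24h its Kaede-green mean was 3.07 ± 1.12 CPM and its Kaede-red mean 3.54 ± 2.41 CPM (n = 4 each), and the log2 fold change was 0.18 (SE 0.51). At 72h the Kaede-green libraries had 6.56, 1.52, 3.16 and 3.11 CPM and the Kaede-red ones 1.48, 1.18, 0.302 and 2.18 CPM. The 72h difference was -1.31 on the log2 scale (SE 0.49), and the highest Kaede-red library exceeded the lowest Kaede-green one.

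Snhg6, the host of Snord87, showed opposite signs at the 2 times. At 24h, Kaede-green libraries had 0.557, 0.409, 2.55 and 0 CPM, from 1, 1, 10 and 0 reads. Kaede-red libraries at 24h had 2.89, 3.28, 4.34 and 3.22 CPM, from 24 to 50 reads, and all lay above the Kaede-green ones. The log2 fold change was 1.69 (SE 0.68), and 3.44 without Kaede-green replicate 3, which holds most of the group's reads. At 72h, Kaede-green libraries had 0, 2.13, 2.43 and 3.63 CPM and Kaede-red libraries 0.625, 1.01, 0.151 and 0.882 CPM. The log2 fold change was -1.51 (SE 0.61), with overlap through the Kaede-green library at 0. In Kaede-red cells, all libraries at 72h were below all at 24h, by -2.18 on the log2 scale (SE 0.54). Where a library had no read, 3 counts would correspond to 1.22 CPM in Kaede-green replicate 4 at 24h and 1.09 CPM in Kaede-green replicate 1 at 72h, so that a level like that of the 72h Kaede-red libraries could not be seen in those libraries at their depth.

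Snhg12, which hosts 3 H/ACA snoRNAs and Snord99, had a similar course at low level. Kaede-green libraries at 24h had 0.409 to 1.22 CPM, from 1 to 3 reads each, and Kaede-red libraries 0.729 to 3.67 CPM. The log2 fold change at 24h was 1.62 (SE 0.69), with overlap. At 72h, Kaede-green libraries had 1.46, 1.22, 2.43 and 1.30 CPM and Kaede-red libraries 0.429, 0.654, 0.604 and 0.777 CPM, with no overlap and a log2 fold change of -1.36 (SE 0.58). In Kaede-red cells the log2 fold change from 24h to 72h was -1.71 (SE 0.51).

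Snhg5, host of a pair of Snord50 genes, was near the limit of the depth. Kaede-green libraries at 24h had at most 0.557 CPM and Kaede-red libraries 0.607 to 1.93 CPM. At 72h the ranges were 0.259 to 1.94 and 0.453 to 0.906 CPM. The log2 fold changes were 1.73 (SE 0.84) at 24h, without overlap, and -0.49 (SE 0.65) at 72h, with overlap.

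The 3 members without a fit were lower still. Snhg3, host of the Snora73 pair, had 0 to 1.23 CPM (Kaede-green) and 0.243 to 1.42 CPM (Kaede-red) at 24h, while the 72h ranges were 0.364 to 0.778 and 0.151 to 0.478 CPM. Snhg15, host of Snora9, in the same order, had 0 to 1.28 and 0.438 to 1.35 CPM at 24h, then 0 to 0.778 and 0.302 to 0.679 CPM at 72h. Snhg4, host of Snora74a, had 0.255 to 3.26 and 0.350 to 1.10 CPM at 24h, then 0 to 0.778 and 0 to 0.294 CPM at 72h. These ranges overlapped between colours at both times, but Snhg4 was lower in every Kaede-red library at 72h than in any at 24h. Rcc1, on the same strand as Snhg3 and overlapping it, shares its locus, so the reads of Snhg3 are uncertain. Gm28285, which had no row of its own, overlaps Snhg4 by 4913 bases on the same strand, so the reads of Snhg4 are uncertain as well. The span of Snhg4 was taken from a gene of another name at its annotated position.

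**Figure D2:**
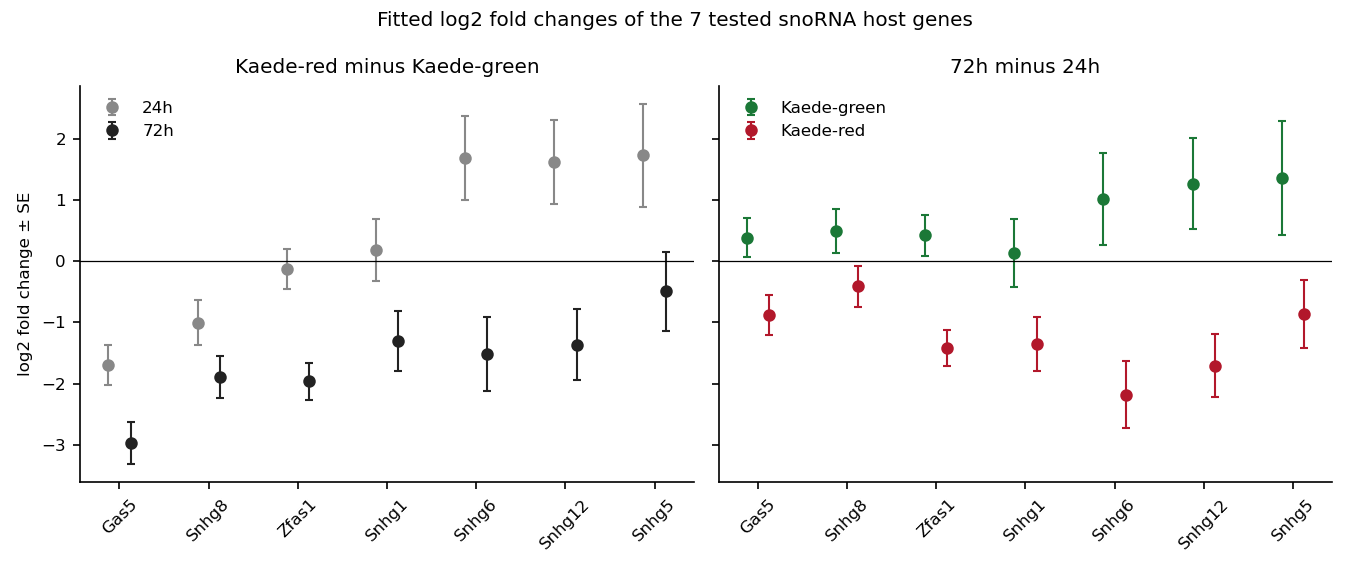
Log2 fold change of the 7 fitted members (points, with bars of 1 SE), on the left for Kaede-red minus Kaede-green at each time and on the right for 72h minus 24h in each colour. At 24h the members lie between -1.70 (Gas5) and 1.73 (Snhg5), at 72h all 7 lie below 0, and on the right all Kaede-green values are above and all Kaede-red values below 0.

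Across the set, 3 of the 7 fitted members (Gas5, Snhg8 and Zfas1) were called lower in Kaede-red cells over both times and none higher, where 10.3% of all tested genes were called lower and 9.96% higher. At 24h only Gas5 was called lower, against 4.30% of all genes. At 72h Gas5, Snhg8 and Zfas1 were called lower, against 8.76% of all genes, and none was called higher, against 8.07%. The members' median was -0.56 (log2 fold change, both times), and it was 0.18 for 24h and -1.51 for 72h, where that of all genes was 0.06, 0.05 and 0.03. Since the members were chosen with values of these libraries known, these counts carry no weight as evidence.

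With time, the members' values had opposite signs in the 2 colours. In Kaede-green cells, 72h against 24h, the 7 log2 fold changes were between 0.14 (Snhg1) and 1.36 (Snhg5), and no member was called. No gene at all was called in this comparison (0% of those tested by edgeR's quasi-likelihood test, with 835 genes at an unadjusted p under 0.05 and 12 genes called by DESeq2). In Kaede-red cells, the 7 log2 fold changes were between -2.18 (Snhg6) and -0.41 (Snhg8), and Snhg6, Snhg12 and Zfas1 were called lower at 72h, against 3.76% of all genes. With the Rn45s share as a covariate none of these 3 was called (adjusted p = 0.0601, 0.521 and 0.0641). Of the 3 calls, only that of Zfas1 was left without Kaede-red replicate 3 at 24h, or without Kaede-red replicate 1 at 72h, and the call of Snhg12 was also lost without Kaede-red replicate 4 at 24h or any other Kaede-red library at 72h. Zfas1 was called for how the red-green difference changed between the 2 times (0.332% of all genes were called lower), and all 7 values were negative, from -3.20 (Snhg6) to -0.90 (Snhg8). The call of Zfas1 held in 4 of the 16 leave-one-out fits, with log2 values between -2.13 and -1.59. The 3 comparisons share libraries, so their values are not independent of each other.

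The annotation places 31 snoRNA genes inside the members on the same strand. 10 of them had a row in the table, and all 10 were tested. Their rows are not those of the members, but they follow from a choice made with earlier results of these data known. 9 of the 10 also lie within an exon of an annotated host transcript. Reads over both features may have gone to either or to neither, since the counting settings are not given in the sources used here. On the CPM scale, all 10 were called lower in Kaede-red cells over both times (adjusted p between 3.13e-07 and 0.00132, edgeR's quasi-likelihood test) and at 72h. At 24h all 10 log2 fold changes were negative and 6 were called. Their median was -1.89 on the log2 scale for both times together, and it was -1.27 for 24h and -2.45 for 72h.

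Snord87, in an intron of Snhg6, had 39.7 ± 10.2 CPM (Kaede-green) against 11.4 ± 4.25 CPM (Kaede-red) at 24h, and 25.6 ± 6.67 against 5.13 ± 3.53 CPM at 72h (n = 4 each). Over both times its log2 fold change was -2.12 (SE 0.26, adjusted p = 3.13e-07), with every Kaede-red library below every Kaede-green one. Its host was higher, not lower, in the same Kaede-red libraries at 24h, so that the reads of Snhg6 per read of Snord87 were 0.219 to 0.450 in Kaede-red and 0 to 0.0926 in Kaede-green libraries. At 72h this ratio was 0 to 0.127 in Kaede-green and 0.0156 to 0.857 in Kaede-red libraries, which overlap.

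Snora24 and its host Snhg8 kept a steady ratio. Snora24 had 10.3 ± 2.72 CPM (Kaede-green) and 4.56 ± 1.35 CPM (Kaede-red) at 24h, then 16.03 ± 13.7 and 4.48 ± 2.85 CPM at 72h (n = 4 each). Over both times it fell by 1.55 on the log2 scale (SE 0.31, adjusted p = 0.000304). The reads of Snhg8 per read of Snora24 were within 1.09 to 1.68 (Kaede-green) and 1.33 to 1.81 (Kaede-red) at 24h, then 1.08 to 2.07 and 1.09 to 1.45 at 72h. The 4 ranges overlap one another. As Snora24 lies within an exon of the annotated Snhg8 locus, part of these reads may come from the same molecules.

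Snord47, the only one of the 8 snoRNAs in Gas5 with a row, fell by 1.85 on the log2 scale over both times (SE 0.36, adjusted p = 0.000323). Its Kaede-green level was 12.7 ± 8.19 CPM at 24h and 8.08 ± 6.12 CPM at 72h, and its Kaede-red level 3.53 ± 0.685 and 2.64 ± 2.55 CPM (n = 4 each). Its call at 72h was lost without Kaede-green replicate 4 at 72h. The median of Gas5 reads per Snord47 read was 22.2 and 17.0 at 24h, and 49.8 and 16.1 at 72h. Only at 72h was the difference between these medians large, and there the Kaede-green libraries ranged from 11.02 to 71.7 and included all but the lowest of the Kaede-red ones.

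Snord12 in Zfas1 fell by 1.93 on the log2 scale over both times (SE 0.30, adjusted p = 1.58e-05). Its Kaede-green level was 16.8 ± 5.70 CPM at 24h and 19.7 ± 6.43 CPM at 72h, and its Kaede-red level 6.53 ± 1.93 and 4.09 ± 3.57 CPM (n = 4 each). At 24h, where the level of Zfas1 itself overlapped between the colours, the median of Zfas1 reads per Snord12 read was 0.340 (Kaede-green) and 0.903 (Kaede-red), and at 72h it was 0.426 and 0.540.

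For Snhg12 and Snhg1 the median ratio of host to snoRNA reads was also higher in Kaede-red cells. Snord99 fell by 2.08 on the log2 scale (SE 0.28, adjusted p = 1.62e-06), Snora16a by 2.06 (adjusted p = 5.63e-06), Snora61 by 1.49 (adjusted p = 9.75e-05) and Snora44 by 1.40 (adjusted p = 0.00132). The median of Snhg12 reads per read of these 4 snoRNAs was 0.0118 (Kaede-green) and 0.0864 (Kaede-red) at 24h, then 0.0221 and 0.0399 at 72h, without overlap of the colours at 24h (0.00800 to 0.0268 against 0.0484 to 0.141) and with overlap at 72h. Snord22 in Snhg1 fell by 1.98 (SE 0.27, adjusted p = 1.87e-06), and the median of Snhg1 reads per Snord22 read was 0.0702 and 0.149, then 0.0589 and 0.114, in the same order, with overlap at both times. Snora74a in Snhg4 fell by 1.71 (adjusted p = 1.69e-05). At 24h the calls of Snord12, Snord22, Snord47, Snord99 and Snora16a were each absent from 5 to 8 of the 16 leave-one-out fits, while that of Snord87 was not lost in any.

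**Figure D3:**
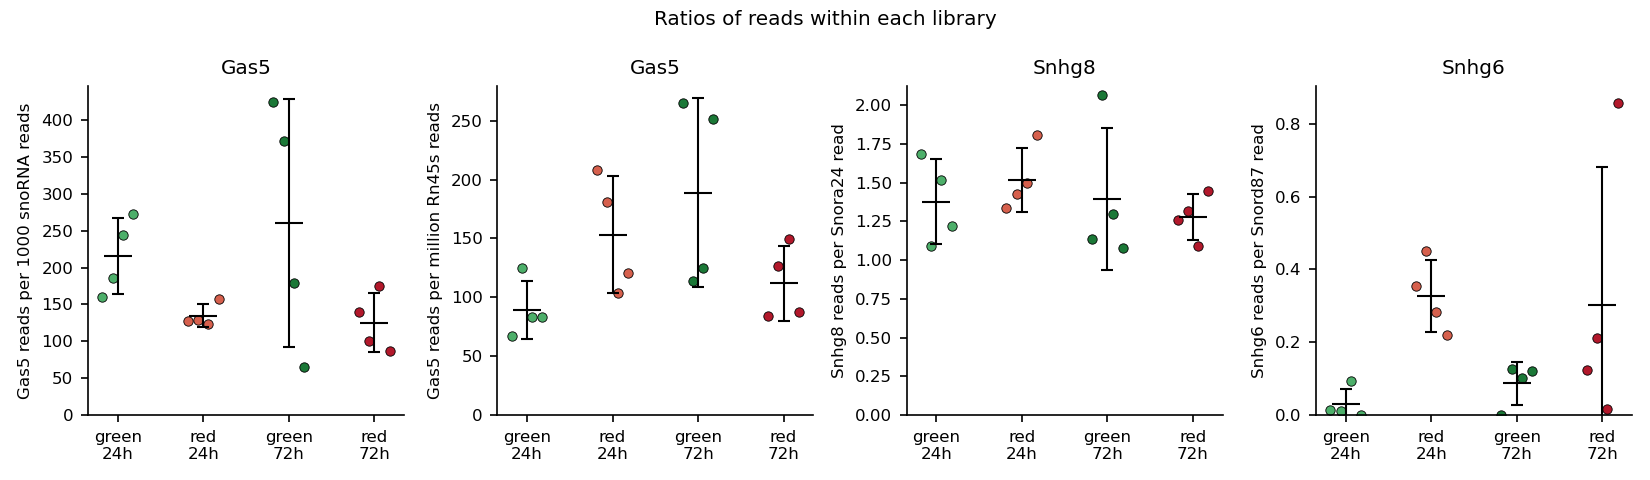
Ratios of reads formed within each library in the 4 groups, for Gas5 (per 1000 snoRNA reads and per 1000000 Rn45s reads), Snhg8 (per Snora24 read) and Snhg6 (per Snord87 read), with points for libraries and bars for mean and SD, cut at 0. At 24h Gas5 per snoRNA read is lower in all Kaede-red libraries while Gas5 per Rn45s read is mostly higher there, Snhg8 per Snora24 read overlaps among all 4 groups, and Snhg6 per Snord87 read is highest in Kaede-red replicate 4 at 72h (0.857).

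On the CPM scale, most tested snoRNA rows of the table fell in Kaede-red cells. Of 119 rows, 67 were tested, and 60 of these were called lower over both times and none higher, with a median log2 fold change of -1.87. At 24h 18 and at 72h 60 were called lower, while 65 and 67 of the log2 fold changes were negative. Relative to counts outside Rn45s, summed snoRNA reads overlapped between the colours at 24h and were lower in every Kaede-red library at 72h. Per Rn45s read they were higher in every Kaede-red library at 24h and overlapped at 72h. Snord67 (-2.86, adjusted p = 0.000184) and Snord65 (-2.82, adjusted p = 1.79e-05) had the largest falls. Gas5 had 159, 186, 244 and 273 reads per 1000 snoRNA reads in Kaede-green and 128, 129, 124 and 158 in Kaede-red libraries at 24h, which do not overlap but nearly touch. At 72h the values were 425, 372, 179 and 64.6 in Kaede-green and 139, 101, 175 and 87.2 in Kaede-red libraries. Here Kaede-green replicate 4, the library with the highest summed snoRNA level (2920 CPM), was below all Kaede-red ones. Per 1000 snoRNA reads, Snhg8 had 12.98 to 14.9 (Kaede-green) and 10.6 to 21.9 (Kaede-red) reads at 24h, then 11.2 to 16.5 and 18.4 to 23.5 at 72h. On this scale Snhg8 was thus higher, not lower, in all Kaede-red libraries at 72h.

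Other noncoding snoRNA hosts were mostly too low to test. Of 13 in the table, 3 were tested, and 2 were called lower in Kaede-red cells over both times. Dancr, a host of Snora26, had a Kaede-green level of 8.25 ± 1.63 CPM at 24h and 13.6 ± 6.28 CPM at 72h, and a Kaede-red level of 4.32 ± 1.003 and 1.96 ± 0.729 CPM (n = 4 each). Its log2 fold change was -1.85 over both times (SE 0.23, adjusted p = 3.99e-07), while the value at 24h was -0.93 (adjusted p = 0.0930) and that at 72h -2.78 (adjusted p = 6.28e-07). The change of this difference with time was -1.85 (adjusted p = 0.0483), a call that 11 of the 16 leave-one-out fits did not make. This change was negative in all 7 fitted members too. The difference of Zfas1 was also larger at 72h, but at 24h it stood at -0.13, with overlap. 2410006H16Rik (Snhg29) had a log2 fold change of -0.76 (SE 0.26, adjusted p = 0.0364), not called in 9 of those 16 fits and 0.026 with the counts outside Rn45s as library totals, and 1110038B12Rik (Snhg32) one of -0.94 (SE 0.51), not called.

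snoRNAs also sit in protein-coding genes, and these hosts divided. Of 60 tested, 24 were called lower and 2 higher in Kaede-red cells over both times, with a median of -0.32. The largest falls were Rpl13a (-1.51, adjusted p = 4.59e-08) and Rpl39 (-1.49, adjusted p = 1.2e-08), which encode proteins of the large ribosomal subunit. The called rises were Snx5 (0.69, adjusted p = 0.000288), a sorting nexin of endosomes, and Chd8 (0.58, adjusted p = 0.0243), a chromatin remodeller. The call of Chd8 was lost without Kaede-green replicate 1 at 24h, Kaede-green replicate 3 at 72h or Kaede-red replicate 4 at 72h. With the counts outside Rn45s as library totals, 10 of these hosts were called lower and 27 higher.

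Ribosomal protein genes, the main class of TOP messenger RNAs, also fell. Of 77 tested, 68 were called lower with both times together, 56 at 24h and 64 at 72h. None was called higher, and the medians were -1.02, -0.94 and -1.28. Rps14 (-1.998, adjusted p = 3.53e-09) and Rps27a (-1.71, adjusted p = 9.96e-08) fell most. Of 17 other TOP messenger RNAs, 4 were called lower and 1 was called higher, with a median of -0.17. Eef1b2, an exchange factor of translation elongation, fell by 1.21 (adjusted p = 2.49e-07), Tpt1 fell by 1.03 (adjusted p = 1.48e-05), and Pabpc1, the cytoplasmic poly(A)-binding protein, rose by 0.44 (adjusted p = 0.0131). With the counts outside Rn45s as library totals, 35 ribosomal protein genes were called lower and 10 higher. Of the other TOP genes, 1 was called lower and 12 were called higher.

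Among the proteins that assemble snoRNAs, degrade host transcripts or signal to TOP RNAs, few were called. None of 16 snoRNP proteins and assembly factors was called over both times (median -0.22, edgeR's quasi-likelihood test). At 72h, Nufip1, a C/D snoRNP assembly factor, was lower (-0.76, adjusted p = 0.0396), a call absent from 7 of the 16 leave-one-out fits. Of 15 factors of nonsense-mediated decay, 1 was called lower, Magoh of the exon junction complex (-0.69, adjusted p = 0.00674), with a median of -0.10. Magoh was also lower at 72h (-1.18, adjusted p = 0.00120). Of 16 genes of mTORC1 and of TOP RNA regulation none was called over both times (median 0.10), while at 72h Tsc2, a subunit of the complex that restrains mTORC1, was higher (1.12, SE 0.36, adjusted p = 0.0271). In Kaede-red cells, Magoh (-0.77) and Cnbp (-0.64), which binds TOP RNAs, were lower at 72h than at 24h. With the counts outside Rn45s as library totals, 6, 11 and 12 genes of these 3 lists were called higher and none lower.

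**Figure D4:**
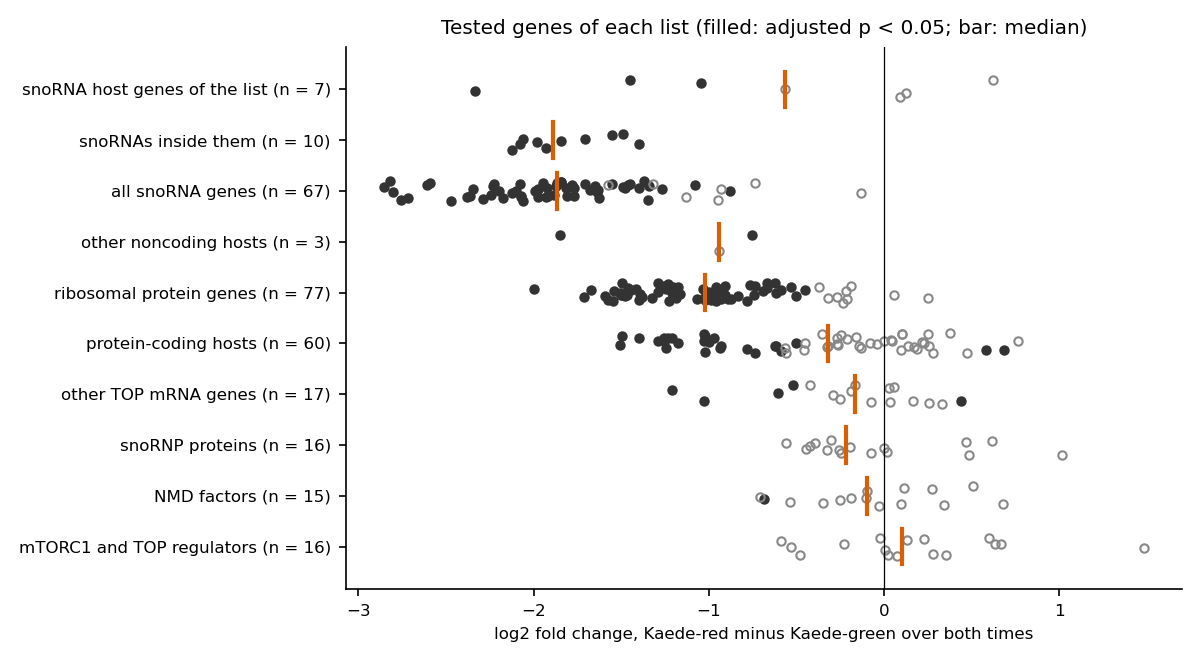
Log2 fold change (horizontal axis, Kaede-red minus Kaede-green, both times) of the tested genes of each list, filled where the adjusted p was under 0.05, with a bar at the median. The snoRNAs inside the members (-1.89) and all snoRNA rows (-1.87) have the lowest medians, ribosomal protein genes are next (-1.02), and snoRNP proteins (-0.22), decay factors (-0.10) and TOP RNA regulators (0.10) lie near 0.

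TOP-like starts were looked for where the RefSeq annotation (GRCm38.p6) places the starts of the members, as a C followed by at least 4 C or T letters on the gene's strand, beginning within 5 bases of the start. Promoters were matched for 8 of the 10 genes, with 9 starts, and 4 starts had such a tract, against 18.3% of 32851 promoters and 43.3% of 67 ribosomal protein promoters. The windows below, on the gene's strand, show 10 bases before and 20 bases from the start, with the tract in capitals, for the 3 hosts whose colour difference was largest at 72h and the 2 low hosts with a tract.
Gas5, first start, chr1:161034591-161034620: gcgggcccgcgagctcgacagcccggagcc
Gas5, second start, chr1:161035156-161035185: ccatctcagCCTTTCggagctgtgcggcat
Snhg8, chr3:123508317-123508346: gttcagaagtCTCTTTggctgcgatccgcc
Zfas1, chr2:167062924-167062953: tgcgccccgggcggccgcaggtctcggctg
Snhg12, chr4:132308668-132308697: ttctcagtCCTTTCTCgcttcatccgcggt
Snhg3, chr4:132353667-132353696: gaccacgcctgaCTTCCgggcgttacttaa
Gas5 at its second start and Snhg8 have a tract, and Zfas1 has none in this window. A match is a description of the letters, and annotated starts can lie some bases from the start in use.

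Slc3a2, the heavy chain of amino acid transporters, starts 106 bases from Snhg1 on the opposite strand, and rose by 0.57 on the log2 scale in Kaede-red cells over both times (SE 0.13, adjusted p = 0.00182), with every Kaede-red library above every Kaede-green one. Snhg1 had a log2 fold change of -0.56 (SE 0.36) in the same comparison. Znfx1, a helicase of antiviral defence that overlaps Zfas1 by 82 bases head to head, rose by 0.94 at 72h (adjusted p = 0.00213), from 65.9 ± 11.5 CPM (Kaede-green) to 126 ± 12.3 CPM (Kaede-red, n = 4 each), where Zfas1 was lower. Its rise over both times (0.44, SE 0.15, adjusted p = 0.0371) was not called in 9 of the 16 leave-one-out fits, and the covariate of Rn45s share turned it to -0.080. Zbtb37, which overlaps Gas5 by 428 bases, had a log2 fold change of 0.48 (adjusted p = 0.566), and Rcc1 beside Snhg3 of 0.05. Whether the counting used strand is not given in the sources used here, so reads in the shared bases cannot be told apart.

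The members did not form a single profile. Over the 16 libraries, Pearson's r of log2 CPM was 0.824 between Gas5 and Zfas1 and 0.823 between Gas5 and Snhg8, but -0.231 between Gas5 and Snhg6 and -0.267 between Gas5 and Snhg5, while Snhg5 and Snhg6 had 0.655. These points share library depth and scaling, and the low members rest on few reads. The non-members most like the mean profile of the 7 members were Hist2h2bb (r = 0.881), Eif4a2 (0.878), Tomm20 (0.866), Nufip1 (0.851) and Col18a1 (0.850). Those most like Gas5 alone were Snord99 (0.948), Rpl27 (0.947), Uqcrh (0.945), Gm6251 (0.939) and Snord12 (0.938). The last group holds a pair of snoRNAs and a ribosomal protein gene.

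Several properties of the libraries moved with the colours. The Rn45s row, which does not separate precursor from mature ribosomal RNA, was lower in Kaede-red cells (log2 fold change -2.36, SE 0.50, adjusted p = 0.000689, edgeR's quasi-likelihood test). Per 1000000 Rn45s reads, the 24h Kaede-red libraries held more Gas5 reads as a group, not fewer (209, 181, 103 and 121, against 66.9, 125, 83.3 and 83.2 in Kaede-green), and at 72h 265, 114, 125 and 252 stood against 83.9, 127, 149 and 87.4. Snhg8 per 1000000 Rn45s reads had a higher median in Kaede-red libraries at both times, with overlap (8.86 to 35.8, median 15.4, against 4.23 to 9.32, median 5.34, at 24h, and 11.7 to 23.1, median 19.7, against 4.19 to 50.9, median 9.02, at 72h). Zfas1 per 1000000 Rn45s reads was higher in every Kaede-red library at 24h (6.18 to 18.7 against 1.61 to 5.54). With the Rn45s share of each library as a covariate, the log2 fold change over both times was -1.26 for Gas5 and -1.64 for Snhg8, both still called, and -0.70 for Zfas1, no longer called. That of Gas5 at 24h, -0.74, and that of Zfas1 at 72h, -1.55, were not called either. With the counts outside Rn45s as library totals, which moved the median gene by 0.81 over both times, Gas5 stood at -1.61, Snhg8 at -0.70 and Zfas1 at -0.28, and at 24h at -0.84, -0.10 and 0.77. The log2 fold changes of Gas5 and Snhg8 were negative at both times in each of these fits. Per Rn45s read, the medians of Snhg8, Snhg1, Snhg5, Snhg6 and Snhg12 were higher in Kaede-red libraries at both times. The median of Gas5 per Rn45s read was higher there at 24h (151 against 83.3 in Kaede-green) but lower at 72h (107 against 188). Why Rn45s differed was not tested.

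The sort held more than 1 cell type. The summed level of 8 monocyte and macrophage markers was 518 to 851 CPM (Kaede-green) and 519 to 765 CPM (Kaede-red) at 24h. At 72h it was 554 to 675 and 877 to 998 CPM. Of the 8 markers, 4 were called higher over both times, among them Adgre1 (1.53) and Cd68 (1.14). None was called lower, but 3 had negative log2 fold changes over both times (lowest -0.12) and 4 at 24h (lowest -0.69). The 6 fibroblast markers summed to 41.9 to 55.1 and 19.7 to 38.5 CPM at 24h, in the same order. At 72h they summed to 46.0 to 51.4 and 12.3 to 19.5 CPM. Both differences went in the same direction as Gas5, and 3 of the 4 tested markers were called lower (Col1a2 -1.39, Col3a1 -1.13). The neutrophil markers in the table summed to 6.54 to 11.9 CPM in the other 3 groups and 16.8 to 18.8 CPM in the 72h Kaede-red libraries, with Csf3r higher (0.67, adjusted p = 0.00576) and Retnlg at 0 in those 3 groups. Dendritic cell markers summed to at most 5.08 CPM. Of the 2 tested over both times, Ccr7 was called higher, with mean levels of 0.224 (Kaede-green) and 1.65 CPM (Kaede-red). The other had a log2 fold change of -0.34 and was not called. Markers of T cells, B cells and tumour epithelium summed to at most 2.45, 2.45 and 2.86 CPM, and all 5 epithelial markers were at 0 in the 72h Kaede-green libraries. The 5 markers of dividing cells summed to 30.2 to 51.4 and 24.5 to 56.5 CPM at 24h, then 34.6 to 52.7 and 20.05 to 27.7 CPM at 72h. The part of these cell types and of the Rn45s share in the results on the hosts was not tested.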

How the data were processed

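The authors made stranded total RNA libraries from sorted cells and processed the reads with Trim Galore, FastQC, HISAT2 (mm10) and featureCounts. The deposited values are whole-number counts per gene for 24421 genes, not normalized. The annotation and strand setting of the counting are not given in the sources used here. No column of values was left unused.

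Counts were tested with edgeR 4.0.16 in R 4.3.3 (filterByExpr, TMM factors, 1 mean per group in a single fit of all 16 libraries, quasi-likelihood test). P-values were Benjamini-Hochberg adjusted over the 9642 genes tested, with 0.05 as the threshold for a call. Ratios, lists and sequences used Python 3.11.15 with pandas 2.3.3. The chi-square per gene between replicates was 3.21 to 115.9 over 24 pairs, so no library was a copy of another. P-values set a difference between groups against the spread between the libraries of a group, estimated over all groups. The main fit did not pair the colours.

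The members and lists were chosen with earlier results of these data known. Genes named beside the members were snoRNAs inside them, neighbours overlapping or within 2 kb of the start, up to 2 called rises and falls per list over both times, the 5 genes most like the members' mean, and Rn45s. The genes most like Gas5, Nufip1 at 72h and Snhg32 were named after their values were seen.

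The alternatives were DESeq2 1.42.0, RLE factors, no filter, at least 10 counts in every library, only the groups compared, Rn45s left out, its share as a covariate, a replicate block, each library left out in turn and, chosen after seeing the data, counts outside Rn45s as library totals.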

Additional observations from a re-analysis of the deposited data

Results flagged for a closer look

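In 40 groups of 4 libraries (10 members in 4 groups), a library was taken to stand apart where its gap to the nearest of the others as a share of the group's range exceeded Dixon's 95% critical value, which chance alone gives in about 1 of 20 groups. Snhg3 in Kaede-green cells at 24h was at 0 CPM in replicate 4, with 0 reads, where the nearest library had 1.02 CPM. As 3 counts would be 1.22 CPM in that library, a level like that of the others was not detectable there. Zfas1 in Kaede-red cells at 72h had 3.02 CPM in replicate 3, from 20 reads, where the nearest library had 1.86 CPM. It was still below every Kaede-green library at 72h.

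The red-green difference of Zfas1 changed from 24h to 72h by -1.84 on the log2 scale (SE 0.44), past the threshold of the fit across all genes. As a member, it is given as a description.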

How the results depend on the processing

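Of the values of log2 fold change of the members under the alternatives, 945 stayed within 1 SD between replicates of the reported one and 21 moved further. Most of these fits left out 1 library each and share the other libraries, so these counts do not measure how far the values depend on the scaling. The number of members called over both times stayed at 3 in every fit without a library. At 24h it was 1, with 1 to 2 without a library (2 without Kaede-green replicate 3 at 24h or replicate 4 at 72h), 2 with no filter or with only the groups compared, 0 with the Rn45s share as a covariate and 3 (2 of them higher) with the counts outside Rn45s as library totals. At 72h it was 3, with 3 to 4 without a library, 5 by DESeq2 and 2 with the covariate, where Zfas1 was lost. For the course of Kaede-red cells over time it was 3, with 1 to 4 without a library and 0 with the covariate. In Kaede-green cells it stayed at 0. For the interaction of colour and time it was 1, with 0 to 2 without a library, 3 by DESeq2 or with no filter, and 0 with the covariate.

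Over all genes, 1950 were called over both times (1583 to 2087 without a library), 724 at 24h (502 to 769), 1623 at 72h (1148 to 1910), 0 in Kaede-green cells over time (0 to 2), 836 in Kaede-red cells (287 to 1109) and 74 for the interaction (2 to 155, the fewest without Kaede-red replicate 3 at 24h). With the Rn45s share as a covariate these were 156, 206, 102, 110 in Kaede-red cells and 34 for the interaction. With the counts outside Rn45s as library totals they were 5659, 4442 and 3589 for the first 3, with the median gene at 0.81, 0.91 and 0.69. DESeq2 called 12 in Kaede-green cells and 290 for the interaction, no filter 37 and 216, at least 10 counts in every library 161 for the interaction, and only the groups compared 1604 in Kaede-red cells. The cause was not tested.

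Directions reversed with the counts outside Rn45s as library totals for 2410006H16Rik (0.026), Eif4a2 (0.14), Hist2h2bb (0.19), Magoh (0.080) and Tomm20 (0.27) over both times and for Tpt1 at 24h (0.018), and with the covariate for Eif4a2 (0.013) and Znfx1 (-0.080) over both times. Members are not in this list, and the sign of Zfas1 at 24h also changed with the counts outside Rn45s as library totals (values above). With the covariate, 4 of the 10 snoRNAs inside the members and 22 of the 77 ribosomal protein genes were still called lower over both times.

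The replicate numbers were not taken as pairs. Same-numbered green and red libraries had correlations of their deviations between -0.02 and 0.15, and 1 of 8 exceeded 0.1. With a replicate block, 164 genes were called for the interaction in place of 74. Depth limits Snhg3, Snhg4, Snhg5, Snhg6, Snhg12 and Snhg15, where 3 counts correspond to 0.729 to 1.67 CPM in Kaede-green libraries. Snhg1 also rested on few reads, with 4 to 17 per Kaede-green library at 24h, 5 to 18 at 72h, and 2 in Kaede-red replicate 3 at 72h.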
